A study of Mus musculus with 6 samples.

Results

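The genes described here encode the proteins of the mitochondrial ribosome. They were chosen as all probes of the deposited table whose gene symbol is Mrpl or Mrps followed by a number, which gave 75 of 23466 probes for 74 genes. Mrps30 had 2 probes and every other gene had 1. RefSeq lists 78 protein-coding mouse genes with such symbols, of which Mrpl42, Mrpl57, Mrpl58 and Mrps36 had no probe under these symbols. The arrays held RNA of neural stem cells (NSC), dividing progenitors that can form neurons and glia, from the brain of C57BL6 mice at postnatal day 0. The genotype labels were Ecrg4 wt, Ecrg4 hetero and Ecrg4 homo, Ecrg4 being the gene of a small secreted protein, with 2 arrays of each. All cells grew untreated in a DMEM/F12 medium that held heparin, EGF and bFGF. Neither the making of the Ecrg4 allele nor the origin of the 2 arrays of a label, from 1 culture or from different animals, is stated in the sources used here. The p-values thus cover only array-to-array spread, which may be technical.

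Mitochondrial ribosomes translate the few proteins that mitochondrial DNA encodes, all of them core subunits of the respiratory chain and ATP synthase. Their rRNAs are made in the organelle, whereas their proteins are encoded in the nucleus, made on cytosolic ribosomes and imported. Part of these proteins have homologues in bacterial ribosomes and the others are found only in mitochondria, and inherited defects in several of them cause combined respiratory chain deficiency.

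Values are 1-colour intensities on a linear scale, which had a median of 30 over the measured probes of each array. Between 21740 and 22561 probes had a value on an array. The 95th percentile of 663 olfactory receptor probes, genes not expected in these cells, lay between 50.5 and 57.6 per array and is called the background level here. The Ecrg4 probe read 112.9 and 154.9 on the wt arrays, 345.5 and 373.9 on the hetero arrays, and 1.4 and 1.3 on the homo arrays. It was thus near the floor under the homo label and higher under the hetero label than under wt, with a log2 fold change of 1.44 ± 0.19 (SE, limma adjusted p = 0.0395). Without wt replicate 1, or without any single hetero or homo array, the limma adjusted p of that difference was between 0.112 and 0.225. Hetero arrays are the arrays labelled so throughout, and directions drawn from them rest on that label. Of 9 neural stem cell markers with a probe, 8 exceeded the background level on all 6 arrays, Fabp7 and Vim among them, and Prom1 did not. All 5 neuronal and all 5 endothelial markers with a probe lay below it on every array. Of 6 microglial markers 5 lay below it on every array, and of 4 oligodendrocyte markers 1 exceeded it on all 6 and 2 on none. Of 6 fibroblast and mural markers only Acta2, smooth muscle actin, exceeded it, and the summed intensity of the 6 was 1037 to 1321 on wt, 381 to 388 on hetero and 188 to 211 on homo arrays. Limma called 1 of the 6 fibroblast and mural probes lower in each of homo against wt, hetero against wt and homo against hetero (limma adjusted p = 0.00583, 0.0264 and 0.0325). Of 5 tested microglial probes it called 1 higher, 1 lower and 1 higher (0.0221, 0.0374 and 0.0218), and none of these 5 had a mean above the background level. No probe of the other marker lists was called. The part of such cells in the values of the mitochondrial genes was not tested.

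No mitochondrial ribosomal protein probe passed the test in any comparison of the genotype labels. In limma, 0 of 75 probes were called in homo against wt, where 0.92% of all 20434 tested probes were called. The count was 0 in hetero against wt beside 0.749% of all probes, 0 in homo against hetero beside 2.69%, and 0 in the F test over the 3 genotypes beside 2.26%. At an unadjusted p under 0.05 there were 4 higher and 9 lower probes in homo against wt, where all probes gave 9.58% and 9.45%. The 9 were Mrpl53, Mrpl43, Mrpl20, Mrpl30, Mrpl48, Mrpl12, Mrpl14, Mrpl4 and Mrps15, and the 4 were Mrpl15, Mrpl33, Mrpl35 and the dimmer Mrps30 probe, none of which exceeded the background level on all 6 arrays. There was 1 higher, the dim Mrps14, and 1 lower, Mrpl4, in hetero against wt, where all probes gave 6.17% and 7.3%. In homo against hetero 4 were higher and 6 lower, beside 9.25% and 8.9%. The F test gave 10 at an unadjusted p under 0.05, beside 20.3%. The smallest limma adjusted p among the members was 0.0767 for Mrpl53 in homo against wt, 0.292 for Mrpl4 in hetero against wt and 0.0565 for Mrpl48 in homo against hetero. A p that misses the threshold with 2 arrays a label does not show that levels were alike. In RNA from whole cultures, fewer cells of a type and less RNA per cell cannot be told apart.

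Given the spread between arrays alone, which may be technical, most differences between these arrays were still bounded. The 95% interval of the log2 fold change lay within 2-fold either way for 70 of the 75 probes in homo against wt, 73 in hetero against wt and 70 in homo against hetero. Of all 20434 tested probes it did so for 14975, 15525 and 15241. Of the 9083 tested probes whose mean exceeded the background level it did so for 7709, 8050 and 7816. The median half-width of the members' interval was 0.40 on the log2 scale. The members whose interval reached past 2-fold in homo against wt were Mrpl33, Mrpl43, Mrpl48, Mrpl53 and the dimmer Mrps30 probe. Those in hetero against wt were Mrpl41 and Mrps14, and those in homo against hetero were Mrpl14, Mrpl35, Mrpl41, Mrpl48 and Mrps10. Differences of means beyond 1.5-fold were seen for 3, 0 and 3 members in these comparisons, where 14.6%, 11.5% and 14.2% of all tested probes went that far. Of the tested probes above the background level 10.9%, 6.17% and 10.4% did.

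Within that range the homo arrays read slightly lower at the deposited scaling. The median log2 fold change over the 75 probes was -0.09 in homo against wt, -0.01 in hetero against wt and -0.12 in homo against hetero. Over all tested probes it was 0.02, -0.01 and 0.04, and over the 9083 tested probes whose mean exceeded the background level it was -0.00, 0.04 and -0.04. Over the 68 members above that level it was -0.14, -0.01 and -0.14. Homo against wt lay below 0 for 51 probes, hetero against wt for 38 and homo against hetero for 51. Of all tested probes 47.8%, 51.4% and 45.4% lay below 0 in these comparisons. Of those above the background level 50.4%, 44.7% and 55.3% did, and of the 68 members above it 51, 36 and 49. The arrays of homo and wt did not overlap for 10 probes higher in homo and 34 lower, where all tested probes gave 25.7% and 24.8%. For hetero and wt the counts were 17 higher and 20 lower, beside 21% and 24.5%, and for homo and hetero 12 higher and 43 lower, beside 28.7% and 25.9%. Among tested probes above the background level, to which 68 of the members belong, the shares lower in homo were 30.6% against wt and 37.3% against hetero. Both homo arrays read below the other 4 arrays for 27 of 75 probes, beside 13.2% of all tested probes and 20% of those above the background level. The probes were 17 of the 49 large subunit probes and 10 of the 26 small subunit probes. Both homo arrays read above the other 4 for 7 probes, beside 16.2% of all tested probes, and 4 of these 7 were probes not above the background level on every array. The comparisons with homo share its 2 arrays, and both comparisons with wt share the wt arrays, so these counts are not independent of each other.

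**Figure D1:**
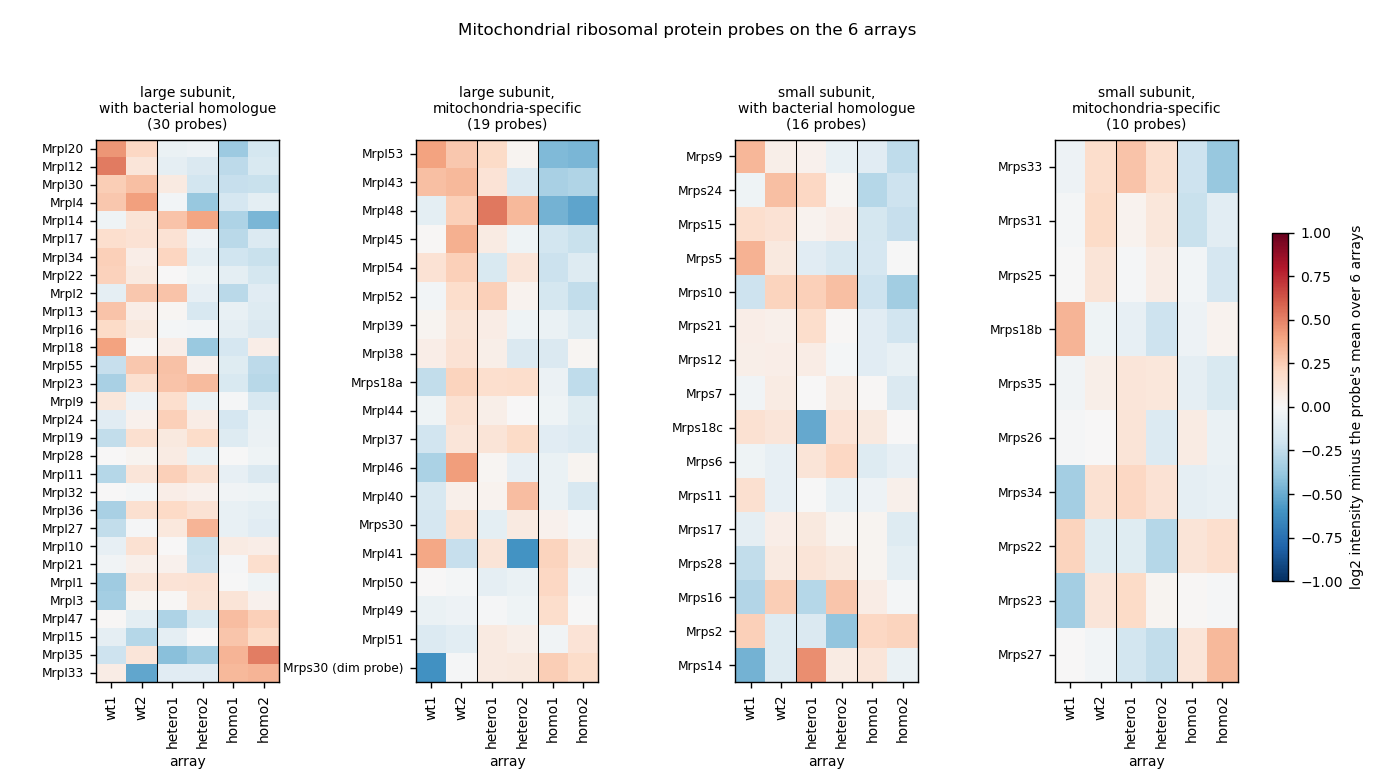
Log2 intensity of each member probe minus its own mean over the 6 arrays (colour), by array (columns) and subunit group (panels), with genotype labels separated by lines and genes ordered by homo minus wt. Blue shades are frequent in the 2 homo columns, and Mrpl47, Mrps27, Mrpl35 and Mrpl33 at the bottom of their panels show red there.

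The size of this lean, and how far homo stood apart from hetero, depended on how the arrays were scaled. With quantile normalization the median in homo against wt was -0.06, with cyclic loess -0.06 and with median centring over the tested probes -0.15. The homo against hetero median was -0.04, -0.02 and -0.17 under these scalings, and that of hetero against wt -0.04, -0.05 and -0.02. Below 0 lay 44, 45 and 58 probes in homo against wt and 44, 45 and 41 in hetero against wt. In homo against hetero 45, 44 and 57 did. With quantile normalization and cyclic loess, hetero thus lay nearly as far below wt as homo did. The number of probes with both homo arrays below the other 4 was 16 with quantile normalization, 15 with cyclic loess and 28 with median centring. All tested probes gave 13.9%, 14.5% and 17.3% under these scalings, and those above the background level 17.3%, 18.1% and 26%. Relative to each probe's own mean, the members' median on the array replicates 1 and 2 was -0.03 and 0.12 for wt, 0.08 and 0.01 for hetero, and -0.07 and -0.10 for homo. The wt arrays lay further apart than the hetero or the homo arrays did, and the median in homo against wt was -0.18 without wt replicate 1 and -0.06 without wt replicate 2.

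Cytosolic ribosomal proteins and respiratory chain subunits, the other nuclear genes of protein synthesis and of the complexes that mitochondrial translation feeds, were set beside the members. The median log2 fold change in homo against wt was -0.23 over 59 cytosolic ribosomal protein probes, but 0.02 with quantile normalization. It was -0.18 over 76 respiratory chain probes, and -0.05 with quantile normalization. In homo against hetero these medians were -0.20 and -0.23, and with quantile normalization they were -0.02 and -0.05. With cyclic loess they were -0.04 and -0.06 in homo against wt, and -0.02 and -0.06 in homo against hetero. With median centring they were -0.29 and -0.24 in homo against wt, and -0.24 and -0.27 in homo against hetero. Of these probes, only Atp5e, a small subunit of ATP synthase, passed the test, with a log2 fold change of -0.81 ± 0.15 in homo against hetero (limma adjusted p = 0.0489).

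**Figure D2:**
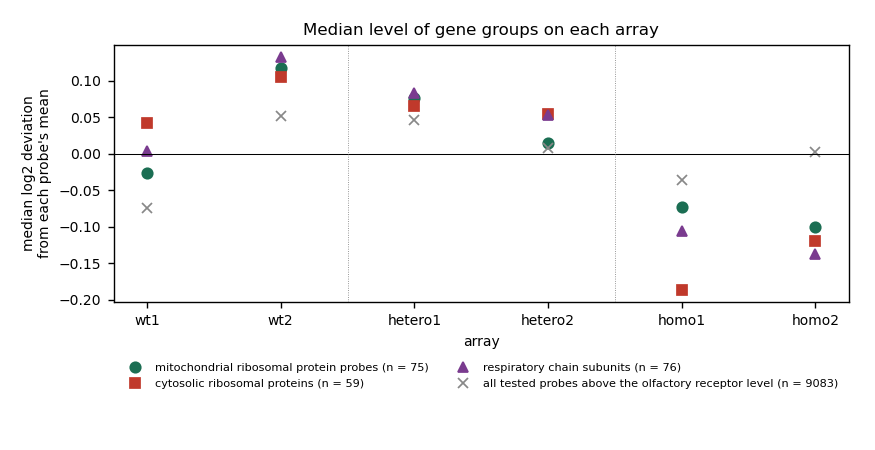
Median log2 deviation of 4 probe groups from each probe's mean (vertical axis) on the 6 arrays (horizontal axis, genotype labels separated by dotted lines); each point is 1 group on 1 array. The members lie at -0.07 and -0.10 on the homo arrays and between -0.03 and 0.12 on the others, and at the deposited scaling respiratory chain subunits and cytosolic ribosomal proteins are lower there too. With quantile normalization the medians in homo against wt are -0.05 and 0.02.

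Promoters of 5 members are shown because these genes had some of the lowest or highest homo intensities of the group relative to the other labels. They were chosen after their values were seen. Sequences are RefSeq's on GRCm38.p6, from 250 bases before to 50 after the gene's start, written 5′ to 3′ on the gene's strand. Capitals mark exact matches on either strand to CCGGAAG, a motif of ETS factors such as GABPA, to an NRF1 motif (GCGC, any base, TGCGC), or to AANATGGCG, a YY1 motif. Near matches to these motifs are not marked. Mrpl53 lies at chr6:83108858-83109157 on the plus strand, Mrpl43 at chr19:45006393-45006692 on the minus strand, Mrpl14 at chr17:45686099-45686398 on the plus strand, Mrps27 at chr13:99344536-99344835 on the plus strand and Mrpl47 at chr3:32736706-32737005 on the minus strand.
Mrpl53: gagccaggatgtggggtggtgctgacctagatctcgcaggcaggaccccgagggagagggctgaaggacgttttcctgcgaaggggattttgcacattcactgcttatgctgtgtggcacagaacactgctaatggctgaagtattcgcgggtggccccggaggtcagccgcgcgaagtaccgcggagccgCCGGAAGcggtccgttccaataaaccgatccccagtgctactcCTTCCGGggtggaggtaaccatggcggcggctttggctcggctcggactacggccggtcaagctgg
Mrpl43: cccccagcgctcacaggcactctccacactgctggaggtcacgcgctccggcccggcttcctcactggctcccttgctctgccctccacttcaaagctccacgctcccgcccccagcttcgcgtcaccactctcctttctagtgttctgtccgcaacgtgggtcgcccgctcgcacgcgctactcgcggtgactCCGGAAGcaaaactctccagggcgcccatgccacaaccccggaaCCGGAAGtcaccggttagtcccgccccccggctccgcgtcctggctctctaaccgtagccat
Mrpl14: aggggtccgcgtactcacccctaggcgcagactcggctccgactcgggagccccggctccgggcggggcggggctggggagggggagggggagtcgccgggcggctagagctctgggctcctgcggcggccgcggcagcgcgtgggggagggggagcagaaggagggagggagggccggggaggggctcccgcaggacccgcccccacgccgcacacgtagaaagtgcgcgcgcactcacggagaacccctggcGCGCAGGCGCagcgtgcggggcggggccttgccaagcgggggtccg
Mrps27: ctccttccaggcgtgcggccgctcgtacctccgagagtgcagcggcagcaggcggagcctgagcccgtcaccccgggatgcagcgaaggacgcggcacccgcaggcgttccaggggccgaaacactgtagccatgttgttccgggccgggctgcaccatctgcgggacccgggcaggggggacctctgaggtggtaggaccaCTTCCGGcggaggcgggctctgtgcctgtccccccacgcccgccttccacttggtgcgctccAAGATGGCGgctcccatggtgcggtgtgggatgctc
Mrpl47: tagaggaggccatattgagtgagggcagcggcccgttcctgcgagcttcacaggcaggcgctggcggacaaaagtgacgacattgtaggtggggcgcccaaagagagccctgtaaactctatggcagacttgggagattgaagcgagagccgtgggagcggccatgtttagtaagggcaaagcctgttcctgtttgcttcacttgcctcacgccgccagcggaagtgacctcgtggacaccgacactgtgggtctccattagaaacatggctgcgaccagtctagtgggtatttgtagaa

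Mrpl53 and Mrpl43 held 2 ETS matches each, Mrpl14 held 1 NRF1 match, Mrps27 held 1 ETS and 1 YY1 match, and the Mrpl47 window held no exact match to these motifs. Across the group, 65 of 74 genes had a promoter entry, 71 entries in all, spread over 15 chromosomes. The ETS motif was found in 33.8% of the 71 entries, against 11.6% of 21262 promoters of protein-coding genes and 8.86% of all 32851. The NRF1 motif was in 16.9% against 6.38% and 4.6%, and the YY1 motif in 12.7% against 3.12% and 2.38%. The E-box CACGTG was in 9.86% against 7.84% and 7.15%, the CRE TGACGTCA in 2.82% against 2.23% and 1.79%, and TATAAA in 7.04% against 12.6% and 13.6%. In every set a gene with several entries was counted once per entry. The overlapping windows of Mrpl2 are thus each among the 7 member entries with the E-box. No matches of different motifs overlapped in the 71 entries. Median GC content was 58.7% in the member promoters, 56.3% in those of protein-coding genes and 52.7% in all. The median log2 fold change in homo against wt was -0.14 for the 39 genes with at least 1 ETS, NRF1 or YY1 match and -0.06 for the 26 without, and in homo against hetero it was -0.11 and -0.15. The order of these groups turned between the comparisons.

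Of the large subunit proteins found only in mitochondria, 19 probes of 18 genes were tested and limma called 0. At an unadjusted p under 0.05, 1 was higher and 3 lower in homo against wt, 0 in hetero against wt, and 2 lower in homo against hetero. All tested probes gave 9.58% higher and 9.45% lower, 6.17% and 7.3%, and 9.25% and 8.9% in these comparisons. The median log2 fold change of the 19 was -0.14 in homo against wt, -0.03 in hetero against wt and -0.11 in homo against hetero, and 13, 10 and 13 of 19 lay below 0. Mrpl53, a protein near the base of the L12 stalk, read 1684.7 and 1535.8 on the wt arrays, 1454.0 and 1299.9 on the hetero arrays, and 940.0 and 930.1 on the homo arrays. Every homo value lay below every other value, and the hetero values lay between. The log2 fold change was -0.78 ± 0.15 (SE) in homo against wt, or 1.72-fold lower, with a 95% interval from -1.14 to -0.42 and a limma adjusted p of 0.0767. In homo against hetero it was -0.56 ± 0.15 (limma adjusted p = 0.126). These differences exceeded the distance between replicates, but neither passed the threshold over all tested probes.

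Mrpl43, another mitochondria-specific protein of this subunit, read 2211.8 and 2241.9 on wt, 1969.8 and 1630.0 on hetero, and 1436.3 and 1458.6 on homo arrays. The 3 labels did not overlap and stood in the same order as for Mrpl53. The log2 fold change in homo against wt was -0.62 ± 0.16, or 1.54-fold lower (limma adjusted p = 0.129). Mrpl48 belongs to the central protuberance, a landmark of the large subunit. It read 1477.4 and 1865.5 on wt, 2274.5 and 1977.2 on hetero, and 1140.0 and 1093.1 on homo arrays. Here the hetero arrays were the highest and the homo arrays the lowest, with no overlap. The log2 fold change in homo against hetero was -0.93 ± 0.18, or 1.9-fold lower, with a 95% interval from -1.36 to -0.50. Its limma adjusted p was 0.0565, the smallest of any member in the 3 comparisons. The difference was called, among other settings, with quantile normalization (0.0413), cyclic loess (0.0445), median centring (0.0244) and a fit on the 4 arrays compared (0.0453). It was not called with blank cells filled (0.0860), with the replicate block (0.118) or without any single hetero or homo array (0.185 to 0.319). In homo against wt Mrpl48 differed by -0.57 ± 0.18 (limma adjusted p = 0.173), and in hetero against wt by 0.35 ± 0.18 (limma adjusted p = 0.424).

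Other members of this group showed less. Mrpl44, which carries an RNase III-like fold and is mutated in a human respiratory chain disorder, read 1012.6 and 1162.6 on wt, 1084.6 and 1045.0 on hetero, and 1010.8 and 960.0 on homo arrays. Both homo values were the lowest, by a small margin, and the log2 fold change in homo against wt was -0.14 with a 95% interval from -0.50 to 0.23. Mrps18a is one of 3 paralogs, of which Mrps18c was listed with the proteins that have a bacterial homologue. Placed in the large subunit despite its name, Mrps18a read 1149.5 and 1590.3 on wt, 1535.4 and 1543.6 on hetero, and 1308.9 and 1147.3 on homo arrays, so wt and homo overlapped. Mrps30, also a large subunit protein, had a bright probe at 629.3 and 787.0 on wt, 658.7 and 752.0 on hetero, and 726.4 and 698.2 on homo arrays. Its second probe read 32.1 and 48.2, then 51.9 and 52.1, then 57.9 and 55.2, and exceeded the background level on 2 arrays only. The 2 probes disagreed in homo against wt, with log2 fold changes of 0.02 and 0.52, and only the dim one had separated labels. Mrpl41 read between 4.4 and 8.7, below the background level on all 6 arrays, and gives no usable level.

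**Figure D3:**
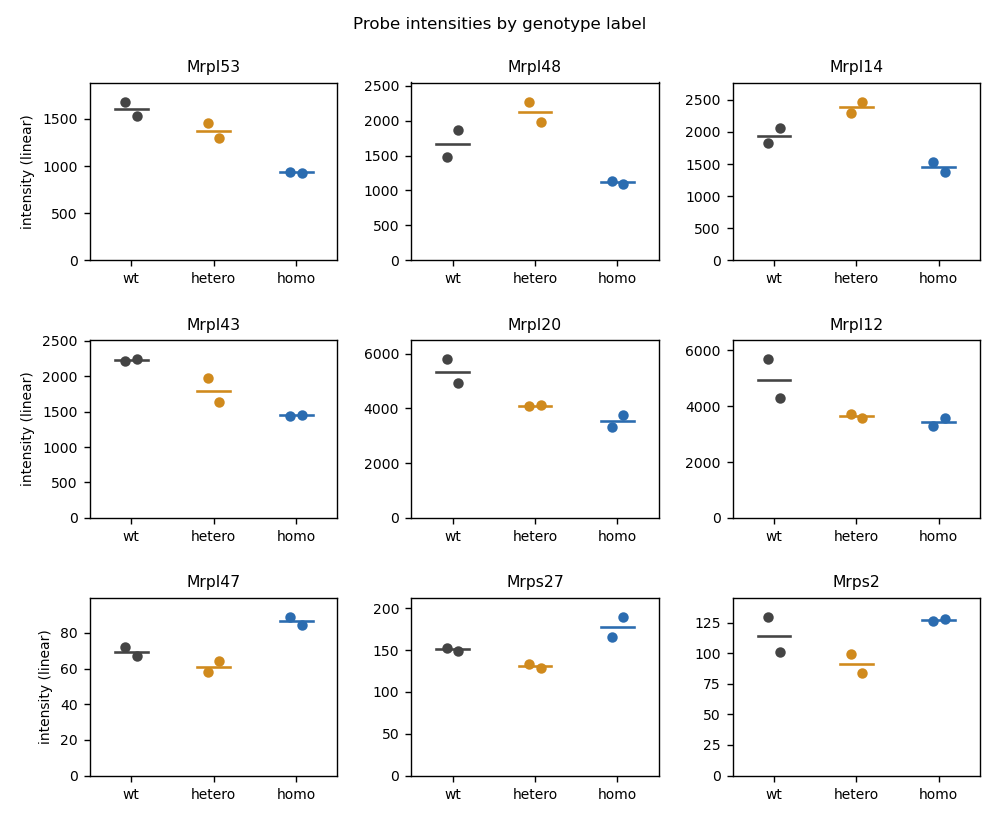
Linear intensity (vertical axes from 0) of 9 member probes on the 2 arrays of each genotype label, with points for arrays and bars for the mean. Homo arrays are lowest for Mrpl53, Mrpl48, Mrpl14, Mrpl43, Mrpl20 and Mrpl12, highest for Mrpl47 and Mrps27, and level with the higher wt array for Mrps2.

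The large subunit proteins with a bacterial homologue made up 30 probes, of which limma called 0. At an unadjusted p under 0.05, 3 were higher and 5 lower in homo against wt, 1 lower in hetero against wt, and 2 higher and 2 lower in homo against hetero. All tested probes gave 9.58% higher and 9.45% lower, 6.17% and 7.3%, and 9.25% and 8.9% in these comparisons. The median log2 fold change of the 30 was -0.10 in homo against wt, 0.00 in hetero against wt and -0.13 in homo against hetero, with 21, 15 and 21 of 30 below 0. Mrpl14 sits on the face that meets the small subunit, where the assembly factor Malsu1 binds before the subunits join. It read 1827.5 and 2059.8 on wt, 2302.4 and 2475.2 on hetero, and 1526.7 and 1374.1 on homo arrays. The labels did not overlap, with hetero highest and homo lowest as for Mrpl48. The log2 fold change in homo against hetero was -0.72 ± 0.15, or 1.65-fold lower, with a 95% interval from -1.10 to -0.35 (limma adjusted p = 0.0750). In homo against wt it was -0.42 ± 0.15 (limma adjusted p = 0.223).

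Mrpl20, an rRNA-binding protein needed early in assembly in bacteria, read 5803.4 and 4915.3 on wt, 4080.2 and 4120.5 on hetero, and 3322.6 and 3776.1 on homo arrays. Its labels did not overlap, and the log2 fold change in homo against wt was -0.59 ± 0.16, or 1.51-fold lower (limma adjusted p = 0.145). Mrpl12, the protein of the stalk that recruits translation factors and also a partner of the mitochondrial RNA polymerase, read 5683.8 and 4305.0 on wt, 3716.9 and 3588.0 on hetero, and 3293.1 and 3568.8 on homo arrays. Both wt values were the highest but lay far apart, and the log2 fold change in homo against wt was -0.53 ± 0.18 (limma adjusted p = 0.201). Mrpl4, which lines the exit tunnel, read 1177.0 and 1298.1 on wt, 959.0 and 750.1 on hetero, and 867.2 and 910.9 on homo arrays. It had the lowest hetero against wt log2 fold change among the brighter members, at -0.54 ± 0.18 (limma adjusted p = 0.292), and its hetero and homo values overlapped.

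Mrpl23 and Mrpl27 read highest on the hetero arrays. Mrpl23, a protein at the tunnel exit, read 1581.5 and 2215.9 on wt, 2409.4 and 2464.9 on hetero, and 1785.2 and 1633.2 on homo arrays. Mrpl27, whose bacterial homologue reaches toward the peptidyl transferase centre, read 1552.0 and 1822.7 on wt, 1975.2 and 2328.9 on hetero, and 1750.9 and 1695.3 on homo arrays. For Mrpl23 the wt replicates lay far apart, and for both genes the homo values fell within the wt range. The log2 fold changes in hetero against wt were 0.38 ± 0.20 and 0.35 ± 0.17 (limma adjusted p = 0.435 and 0.404). Mrpl3, near the catalytic centre, had wt values of 1052.6 and 1356.0, hetero values of 1341.0 and 1459.7, and homo values of 1455.3 and 1374.2. Only the first wt array stood apart for it, and the log2 fold change in homo against wt was 0.24 with a 95% interval from -0.18 to 0.67.

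Mrpl47, the homologue of a bacterial protein at the tunnel exit, read highest on the homo arrays. Its values were 72.3 and 66.9 on wt, 57.9 and 64.5 on hetero, and 89.0 and 84.7 on homo arrays, with hetero lowest, at levels close above background. The log2 fold change was 0.51 ± 0.15 in homo against hetero (limma adjusted p = 0.151) and 0.32 ± 0.15 in homo against wt (limma adjusted p = 0.307). Mrpl35, Mrpl33 and Mrpl15 had larger positive values in homo against wt, at 0.47, 0.55 and 0.42, but their probes read at most 50.3, 7.8 and 21.6 and lay below the background level on all 6 arrays.

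Among small subunit proteins with a bacterial homologue, 16 probes were tested and limma called 0. At an unadjusted p under 0.05 there was 1 lower in homo against wt, 1 higher in hetero against wt, and 1 in each direction in homo against hetero. All tested probes gave 9.58% higher and 9.45% lower, 6.17% and 7.3%, and 9.25% and 8.9% in these comparisons. The median log2 fold change of the 16 was -0.09 in homo against wt, 0.00 in hetero against wt and -0.13 in homo against hetero, with 12, 8 and 11 of 16 below 0. Mrps10, a homologue of bacterial S10, read 943.3 and 1268.8 on wt, 1281.5 and 1335.3 on hetero, and 940.6 and 854.2 on homo arrays. The first wt value lay just above the homo values, and the log2 fold change in homo against hetero was -0.55 ± 0.19 (limma adjusted p = 0.205). Mrps2, the homologue of S2, read 130.0 and 101.1 on wt, 99.9 and 83.9 on hetero, and 127.0 and 128.6 on homo arrays. Here hetero was lowest, and the log2 fold change in homo against hetero was 0.48 ± 0.19 (limma adjusted p = 0.247).

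Mrps5, the homologue of S5, read 793.1 and 666.1 on wt, 575.8 and 557.0 on hetero, and 556.3 and 623.3 on homo arrays, with both wt values highest and the other labels overlapping. Its log2 fold change in hetero against wt was -0.36 ± 0.16 (limma adjusted p = 0.387). Mrps12, a protein of the decoding centre, was among the steadiest probes, with 1671.5 and 1684.8 on wt, 1693.9 and 1588.4 on hetero, and 1488.4 and 1524.8 on homo arrays. Its log2 fold change in homo against wt was -0.16, with a 95% interval from -0.50 to 0.18. Mrps16, mutated in a human respiratory chain disorder, read 1205.2 and 1748.9 on wt, 1208.1 and 1793.3 on hetero, and 1556.3 and 1453.8 on homo arrays. Its labels overlapped entirely, and the log2 fold change in homo against wt of 0.05 had a 95% interval from -0.58 to 0.69. Mrps18c read 1529.0 and 1498.2 on wt, 963.6 and 1510.6 on hetero, and 1469.2 and 1377.7 on homo arrays, where 1 hetero array stood alone.

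The small subunit proteins found only in mitochondria gave 10 probes and 0 calls in limma, with 1 in each direction at an unadjusted p under 0.05 in homo against hetero and 0 in the other comparisons. All tested probes gave 9.25% higher and 8.9% lower in homo against hetero. They gave 9.58% and 9.45% in homo against wt and 6.17% and 7.3% in hetero against wt. The median log2 fold change of the 10 was -0.06 in homo against wt, -0.00 in hetero against wt and -0.12 in homo against hetero, with 5, 5 and 6 of 10 below 0. Mrps27, an RNA-binding protein with pentatricopeptide repeats, read 152.5 and 149.4 on wt, 133.9 and 128.3 on hetero, and 165.6 and 189.7 on homo arrays. The labels did not overlap, and homo was highest, as for Mrpl47. Its log2 fold change was 0.44 ± 0.15 in homo against hetero (limma adjusted p = 0.203) and 0.23 ± 0.15 in homo against wt (limma adjusted p = 0.439). Mrps22, another gene of human respiratory chain disease, read 511.6 and 401.1 on wt, 402.6 and 359.8 on hetero, and 478.6 and 491.3 on homo arrays. Homo lay above hetero and within the wt spread, and the log2 fold change in homo against hetero was 0.35 ± 0.18 (limma adjusted p = 0.362). Mrps18b, the third of the Mrps18 paralogs, read 596.2 and 456.9 on wt, 443.9 and 408.2 on hetero, and 452.8 and 482.7 on homo arrays, with wt and homo overlapping. Mrps33, a small protein of this subunit, read 3851.6 and 4517.6 on wt, 4861.4 and 4491.6 on hetero, and 3453.8 and 3068.5 on homo arrays. Homo was lowest without overlap, and the log2 fold change in homo against hetero was -0.52 ± 0.16, or 1.44-fold lower (limma adjusted p = 0.168).

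**Figure D4:**
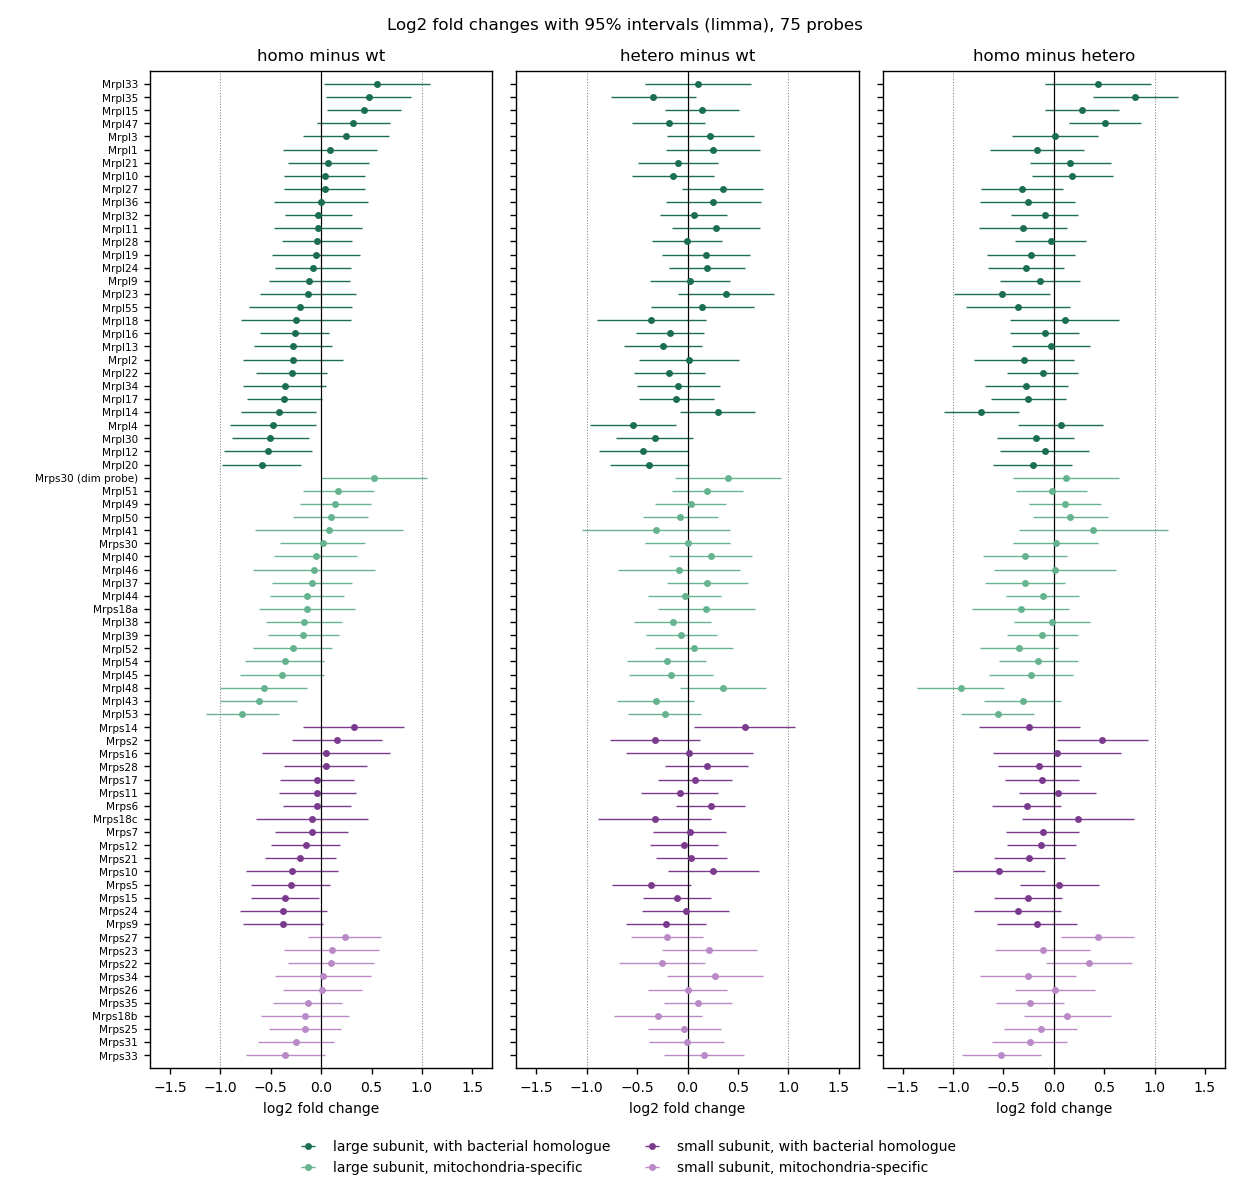
Log2 fold change (points) with 95% limma intervals (lines) for the 75 probes in the 3 comparisons, coloured by subunit group, with dotted lines at 2-fold either way. Intervals of 70, 73 and 70 probes stay within the dotted lines in homo against wt, hetero against wt and homo against hetero.

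Other genes of mitochondrial translation were counted from lists, and limma called 0 of their probes in any comparison. Subunits with other names had 5 probes of 7 listed genes, with a median log2 fold change of -0.40 in homo against wt and -0.34 in hetero against wt, and all 5 lay below 0 in both. Their homo against hetero median was 0.15, and 3 of 5 lay above 0. At an unadjusted p under 0.05, 2 of the 5 were lower in homo against wt and 2 in hetero against wt, where all probes gave 9.45% and 7.3%. Chchd1, a small subunit protein, read 3095.7 and 2815.6 on wt, 2601.5 and 2077.6 on hetero, and 1367.5 and 1743.9 on homo arrays. Its labels did not overlap, in the order seen for Mrpl53, and the log2 fold change in homo against wt was -0.93 ± 0.20 (limma adjusted p = 0.0939). Gadd45gip1, a large subunit protein, and Ptcd3, a small subunit protein, read lower on hetero than on wt, by log2 fold changes of -0.60 ± 0.15 and -0.62 ± 0.19 (limma adjusted p = 0.205 and 0.284).

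Other lists covered factors that serve the ribosome. In homo against wt the median was 0.03 over 11 translation factor probes, 0.01 over 20 probes of assembly and rRNA modification factors, and 0.01 over 17 probes of mitochondrial aminoacyl-tRNA synthetases. It was -0.02 over 12 probes for mitochondrial DNA transcription and maintenance and 0.08 over 10 probes of transcription regulators. At an unadjusted p under 0.05 in homo against wt these lists had 1, 2, 3, 0 and 0 probes higher and 1, 1, 1, 2 and 1 lower. All tested probes gave 9.58% higher and 9.45% lower in that comparison. In homo against hetero these medians were -0.06, -0.06, 0.06, 0.02 and 0.13. Nrf1 and Gabpa, among the regulators whose motifs were searched above, had log2 fold changes in homo against wt of -0.13 ± 0.17 and -0.03 ± 0.15 (limma adjusted p = 0.723 and 0.941). Yy1, whose motif was also searched, was counted with the transcription regulators and is not described singly.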

How the data were processed

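The authors deposited 1-colour array intensities on a linear scale, already scaled to a common median, per the values themselves; background correction, scanner and the rule for blank cells are not stated in those values or labels. Per the labels, total RNA was amplified and coupled to a Cy dye, although biotin is given as the label. Intensities were log2-transformed without a pseudocount, and the 20434 probes that no array left blank were fitted with limma 3.58.1 in R 4.3.3, with 1 coefficient per genotype, Benjamini-Hochberg adjustment over all of them and a two-sided threshold of 0.05. Residual degrees of freedom were 3, so the number of arrays limits the precision. The fit was tested on simulated data. Symbols came from the platform annotation, updated through RefSeq; all member symbols were current, and 6841 probes had no symbol.

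Members were named when called, when a gene had several probes, or from a list of known roles. They were also named when among the 4 highest or 4 lowest log2 fold changes of probes above the background level in a comparison. Genes of the other mitochondrial, ribosomal and respiratory chain lists were named when called, and called marker probes were counted. Mrps33, Mrps15, Mrpl30, Mrpl15, Mrpl33, Mrpl35, Mrps14, Chchd1, Gadd45gip1, Ptcd3, Nrf1, Gabpa and the genes of the closing section were added after their values were seen. The members and lists were chosen with earlier results of these data known. Lists were described by counts and medians only. Over all tested probes, same-numbered arrays did not deviate together (correlations of 0.02, 0.01 and -0.08), so no pairing was used. Alternatives were a pseudocount of 16, quantile, loess and median scaling, leaving out dim probes, filling blank cells, an intensity trend with a robust prior, array weights, fits on the compared arrays only, a replicate block, averaging probes of a gene and leaving out each array.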

Additional observations from a re-analysis of the deposited data

How the results depend on the processing

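No member was called in hetero against wt under any alternative, and no member changed direction while called. In homo against wt, members called were 4 with a pseudocount of 16, 3 with dim probes left out and 3 with an intensity trend and robust prior (Mrpl53, Mrpl43 and Mrpl20, with Mrpl30 under the pseudocount). In homo against hetero they were 6 with the pseudocount, 1 with quantile normalization, 1 with cyclic loess, 1 with median centring, 3 with dim probes left out, 5 with the trend, 3 with array weights and 1 on the arrays compared. Mrpl48 was among them each time, and leaving out 1 array gave 0 to 1. In the F test they were 4 with the pseudocount, 1 with centring, 3 with dim probes left out, 5 with the trend and 1 with weights. The cause was not tested. The median in homo against hetero was -0.036 with quantile normalization and -0.023 with cyclic loess, and leaving out 1 array moved the median in homo against wt between -0.18 and -0.061. All probes called in homo against wt (188) became 1143 with the pseudocount, 328 with quantile normalization, 313 with loess, 314 with centring, 720 with dim probes left out, 88 with blank cells filled, 1094 with the trend, 89 with weights, 59 on the arrays compared and 1 to 224 without 1 array. Those in hetero against wt (153) became 306 with the pseudocount, 400 with the trend, 100 with weights, 40 on the arrays compared and 18 to 340 without 1 array. Those in homo against hetero (549) became 1376 with the pseudocount, 320 with blank cells filled, 1357 with the trend, 1261 with weights and 6 to 680 without 1 array. With the replicate block the counts over all probes were 47, 51 and 244, and 0 members were called in each comparison; same-numbered arrays share only a number. With 2 arrays a label, an array left alone was assumed to vary like the others, and probes near background limit what dim members can show. The Ecrg4 difference in hetero against wt lost its call with blank cells filled (limma adjusted p = 0.0695) and with array weights (0.0507). It also did so with the replicate block (limma adjusted p = 0.0860) and on the arrays compared (0.136).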

Other observations

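Probes under older symbols gave values for 3 genes that current annotation places among the mitochondrial ribosomal proteins. Ict1 and Mrp63 among them were already counted above with the subunits of other names. Mrpl42, a large subunit protein annotated here as D10Ertd322e, read 5461.6 and 5201.5 on wt, 5334.8 and 5376.1 on hetero, and 4527.5 and 4092.3 on homo arrays. Both homo values were the lowest, and the log2 fold change in homo against wt was -0.31 ± 0.14 (limma adjusted p = 0.310). Ict1, the older symbol of Mrpl58, a peptidyl-tRNA hydrolase built into the large subunit, read 877.9 and 658.4 on wt, 683.3 and 561.4 on hetero, and 584.9 and 626.5 on homo arrays. Mrp63, the older symbol of Mrpl57, lay below the background level on all 6 arrays.

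Lars2, the mitochondrial leucyl-tRNA synthetase, read 3987.1 and 10953.7 on wt, 3384.1 and 9703.9 on hetero, and 2461.3 and 4369.8 on homo arrays. Replicates lay far apart under every label, with replicate 2 the higher each time, and the log2 fold change in homo against wt was -1.01 ± 0.65 (limma adjusted p = 0.440). Pprc1, a coactivator of genes for mitochondrial proteins, read 310.3 and 247.5 on wt, 211.5 and 192.0 on hetero, and 168.3 and 212.3 on homo arrays, with both wt values highest (log2 fold change in homo against wt of -0.55 ± 0.19, limma adjusted p = 0.209).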
